A study of Mus musculus with 2 samples.

Results

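Lysosomal enzymes and membrane proteins were followed as 40 genes in mouse embryonic fibroblasts (MEFs), connective-tissue cells grown out of embryos. The genes were taken by symbol, and each probe set whose platform annotation gave one of them as its only gene was used. All 40 genes had a value, from 41 probe sets, among the 19938 genes measured. They comprised 10 cathepsins, 11 glycosidases, 5 sulfatases, 7 membrane proteins, 6 lipid-handling and other soluble proteins, and the regulator Tfeb. The study set MatDup.dist7 MEFs, in which both copies of distal chromosome 7 are maternal, against PatDup.dist7 MEFs, in which both are paternal. Both cultures came from embryos of 13.5 days post coitum and were grown in the same serum-containing medium, per the labels. Each genotype was measured on 1 array, so no error between cultures and no test can be given, and every value below describes these 2 arrays. The labels used here state no strain, passage or number of embryos behind each culture.

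The lysosome is the acidic compartment in which cells take apart proteins, sugars and lipids. Most of its soluble hydrolases receive a mannose 6-phosphate tag in the Golgi and are carried onward by receptors, while a proton pump, the vacuolar ATPase, keeps the compartment acidic. Many lysosomal genes hold a short palindromic promoter element, called CLEAR, which TFEB and its relatives bind. Loss of single members causes lysosomal storage diseases.

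Lysosomal genes were mostly lower in MatDup.dist7. Levels are deposited linear intensities, and each difference is MatDup.dist7 minus PatDup.dist7 on the log2(intensity + 16) scale, which understates changes of dim genes. Of the 40 genes, 33 had a difference below 0, whereas 48.6% of all 19938 genes did. The median difference of the lysosomal genes was -0.38, a 1.30-fold lower level in MatDup.dist7, and that of all genes was 0.02. The lysosomal genes had quartiles at -0.51 and -0.29, against -0.35 and 0.41 for all genes. Bright genes as a whole spread less, however. Over a mean intensity of 1000 the distance between quartiles was 0.14 for the lysosomal genes and 0.40 for all genes. Between 300 and 1000 it was 0.19 against 0.55, and below 100 it was 0.40 for 4 lysosomal genes against 0.90. Between 100 and 300 the lysosomal genes spread more widely, at 0.88 against 0.71. The differences were small. At a 2-fold rule, 0 of 40 genes were higher in MatDup.dist7, against 4.47% of all genes, and 1, Ctsk, was higher in PatDup.dist7, a share near the 3.16% of all genes. At a 1.5-fold rule, 0 of 40 were higher in MatDup.dist7, against 15.5% of all genes, and 9 were higher in PatDup.dist7, against 12.5%. The 9 were Ctsk, Tfeb, Gla, Gaa, Galns, Sgsh, Neu1, Mcoln1 and Hexa. With a pseudocount of 64 in place of 16, 3 genes passed this rule on the PatDup.dist7 side, against 3.72% of all genes.

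Signal strength was considered because bright genes as a whole also leaned towards PatDup.dist7. Of the 40 genes, 38 had a mean level above the median of all probe sets, an intensity of 64.7, as did 11655 of all genes. Of the 38, 31 had a difference below 0, against 51.7% of these 11655 genes. Past 1.5-fold were 0 of the 38 on the MatDup.dist7 side, against 9.75%, and 8 on the PatDup.dist7 side, against 9.34%. Past 2-fold were 0, against 1.53%, and 1, against 1.55%, in the same order. Among genes with a mean intensity over 1000, the median was -0.36 for 14 lysosomal genes and -0.14 for all 780 genes. Between 300 and 1000 it was -0.35 for 12 lysosomal genes and -0.10 for all 2984 genes. Between 100 and 300 it was -0.56 for 10 lysosomal genes and 0.02 for all 5414 genes, and below 100 it was -0.44 for 4 lysosomal genes and 0.11 for all 10760 genes. After each difference was centred on the running median of genes of similar level, the median of the lysosomal genes was -0.27, and all of the 33 genes stayed below 0. Across the 40 genes, level and difference had a Pearson r of 0.04 and a Spearman rho of 0.16, a description over genes that share both arrays. As a measure of spread within genes, probe sets that target 1 gene had a standard deviation of 0.37 in their differences, over 1800 probe sets of 694 genes, all above the level median. Of the 40 genes, 21 lay further below 0 than this and 3 further above it. The share of all genes past this cut was not counted. For all genes above the level median, the quartiles, -0.33 and 0.32, lay inside it on each side. The measure holds no variation between cultures.

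**Figure D1:**
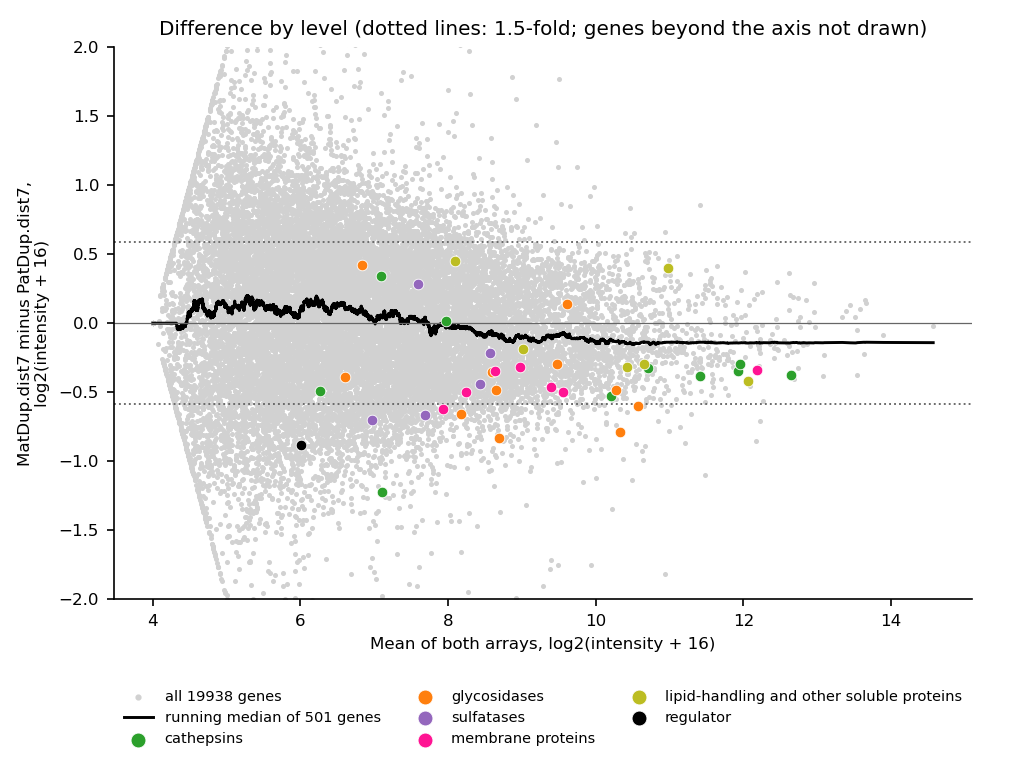
Difference between the genotypes (MatDup.dist7 minus PatDup.dist7, log2(intensity + 16), vertical axis) against the mean level of both arrays (horizontal axis). Grey points are all 19938 genes, less those beyond the axis at 2 and -2, the black line is their running median, coloured points are the 40 lysosomal genes by class, and dotted lines mark 1.5-fold. Most coloured points lie below the black line, and those above 0 are 7 genes.

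Promoters were read for the CLEAR core as a description of the genes. The windows ran from 250 bases before to 50 after each start, from RefSeq in build GRCm38.p6, and 35 of the 40 genes had one. The letters CACGTG and the longer GTCACGTG, which holds CACGTG within it, were searched on both strands. CACGTG lay in the windows of 12 of 35 lysosomal genes (34.3%), against 9.50% of the 15614 measured genes with a window and 8.09% of all 27025 genes with one. GTCACGTG lay in 9 of 35 (25.7%), against 3.47% of the measured genes and 2.55% of all. Lists of related genes, described below, had shares on both sides of this. In the genes of mannose 6-phosphate tagging and sorting, 6 of 14 held CACGTG and 5 of 14 held GTCACGTG, higher shares. Lower shares were found in other lysosomal hydrolases and activators, with 4 and 3 of 26 in the same order. They were also lower in other lysosomal membrane proteins and transporters (6 and 5 of 28) and in the vacuolar ATPase (4 and 2 of 19). A match is a description of letters and not evidence of binding. The stretches of the 9 genes before the start are printed here to let the copies be compared, 5′ to 3′ on the strand of the gene, with the matches in capitals.
Ctsd: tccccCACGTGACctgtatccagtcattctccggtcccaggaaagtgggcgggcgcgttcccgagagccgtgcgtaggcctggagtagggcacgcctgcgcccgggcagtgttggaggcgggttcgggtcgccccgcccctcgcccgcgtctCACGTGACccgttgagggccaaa
Ctsa: aacaatgagcaaactGTCACGTGatgcag
Gla: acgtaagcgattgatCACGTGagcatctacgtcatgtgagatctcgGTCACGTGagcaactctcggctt
Glb1: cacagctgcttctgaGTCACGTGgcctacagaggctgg
Naglu: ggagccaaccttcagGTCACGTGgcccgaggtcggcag
Arsa: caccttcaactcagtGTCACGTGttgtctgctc
Sgsh: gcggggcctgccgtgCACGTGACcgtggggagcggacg
Lamp1: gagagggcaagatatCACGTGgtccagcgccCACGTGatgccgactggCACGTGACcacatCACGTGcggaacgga
Mcoln1: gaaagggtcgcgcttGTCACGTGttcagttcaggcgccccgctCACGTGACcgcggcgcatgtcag

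Positions of these stretches in GRCm38.p6 are chr7:142387903-142388077 on the minus strand for Ctsd, chr2:164833744-164833772 on the plus strand for Ctsa and chrX:134601179-134601247 on the minus strand for Gla. They are chr9:114401013-114401050 (plus) for Glb1, chr11:101070004-101070041 (plus) for Naglu, chr15:89477425-89477457 (minus) for Arsa and chr11:119355517-119355554 (minus) for Sgsh. Those of the membrane proteins are chr8:13159085-13159160 (plus) for Lamp1 and chr8:3500431-3500496 (plus) for Mcoln1. Lamp1 held 4 copies of CACGTG before its start, and Mcoln1 held 2 copies of GTCACGTG within 66 bases. The median difference was -0.38 for the 9 genes that held GTCACGTG and -0.37 for the 26 that did not. The part of the element in the differences was not tested. Of the 9, 8 were lower in MatDup.dist7, the exception being Naglu. None of the 5 lipid-handling and other soluble proteins with a window held CACGTG.

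Tfeb, the transcription factor for which the element is best known, was lower in MatDup.dist7 as well. Its intensity was 31.3 in MatDup.dist7 MEFs and 71.2 in PatDup.dist7 MEFs, a difference of -0.88. It was a dim gene with a mean level under the median of all probe sets, and its difference ranged from -1.16 with a pseudocount of 1 to -0.50 with a pseudocount of 64.

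Among the cathepsins, the proteases of the lysosome, 8 of 10 were lower in MatDup.dist7, with a median difference of -0.36. After centring by level this median was -0.22. Ctsk, a collagen-degrading cysteine protease best known from osteoclasts, had 74.0 in MatDup.dist7 cells against 194 in PatDup.dist7 cells, a difference of -1.22. It was the only lysosomal gene beyond 2-fold, and with a pseudocount of 64 it fell short of this, at -0.90. Of all genes, 1.56% had a lower difference than Ctsk. The rest of the family differed less. Ctsc, which activates serine proteases of granules, had 968 in MatDup.dist7 MEFs, against 1405 in PatDup.dist7 MEFs (-0.53). Ctso, a little-studied cysteine protease, was dim at 48.9 in MatDup.dist7 MEFs and 75.4 in PatDup.dist7 MEFs (-0.49).

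The brightest cathepsins, Ctsb, Ctsl, Ctsd, Ctsz and Ctsa, had similar differences. After centring by level these ran from -0.24 for Ctsb to -0.16 for Ctsa. Ctsb, a cysteine protease, had 2382 in MatDup.dist7 cells against 3108 in PatDup.dist7 cells (-0.38). Ctsl, another cysteine endopeptidase, had 3450.2 in MatDup.dist7 MEFs and 4395 in PatDup.dist7 MEFs (-0.35). Ctsd, the main aspartic protease of the compartment, had 5588 in MatDup.dist7 cells against 7260.5 in PatDup.dist7 cells (-0.38). These 3 differences were nearly equal. Ctsz, a carboxypeptidase, had 1474 in MatDup.dist7 MEFs and 1851 in PatDup.dist7 MEFs (-0.33). Ctsa, a serine carboxypeptidase that also shields Glb1 and Neu1 from breakdown, had 3554 in MatDup.dist7 cells against 4377 in PatDup.dist7 cells (-0.30). The exceptions were Ctsf and Ctsh. Ctsf had 235 in MatDup.dist7 MEFs and 233 in PatDup.dist7 MEFs (0.01), and its sign turned when the arrays were centred on the median of all genes (-0.0061). Ctsh, an aminopeptidase, had 137 in MatDup.dist7 cells against 105 in PatDup.dist7 cells (0.34).

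**Figure D2:**
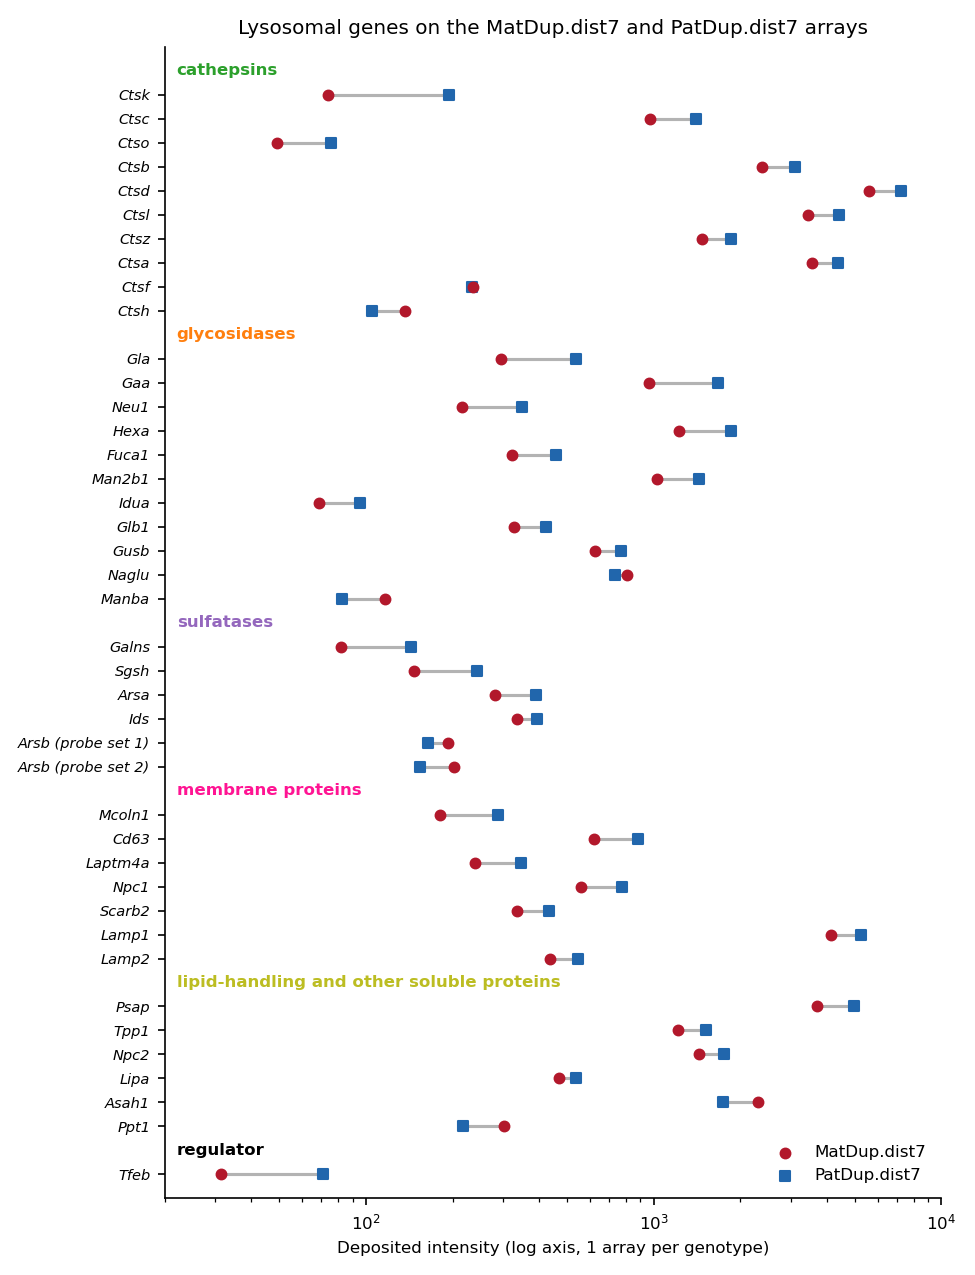
Deposited intensity (horizontal log axis) of each lysosomal gene on the MatDup.dist7 array (red circles) and the PatDup.dist7 array (blue squares), grouped by class and ordered by difference, with 1 array per genotype and no error bars. The red circle lies left of the blue square for 33 of the 40 genes. Arsb is drawn once for each of its 2 probe sets.

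Glycosidases, which remove sugars from glycoproteins, glycolipids and glycogen, were lower in MatDup.dist7 for 9 of 11 genes, with a median difference of -0.48. The X-linked Gla, the alpha-galactosidase missing in Fabry disease, had 294 in MatDup.dist7 MEFs and 536 in PatDup.dist7 MEFs (-0.83). Gaa, which breaks down glycogen and is missing in Pompe disease, had 965 in MatDup.dist7 cells against 1675 in PatDup.dist7 cells (-0.78). Hexa, the alpha subunit of the hexosaminidase missing in Tay-Sachs disease, had 1222 in MatDup.dist7 MEFs and 1863 in PatDup.dist7 MEFs (-0.60). With Neu1, these were the 4 glycosidases beyond 1.5-fold. Neu1, the lysosomal sialidase, had 215 in MatDup.dist7 cells against 348 in PatDup.dist7 cells (-0.65). Its partners in a multienzyme complex, Glb1 and Ctsa, were closer, and Glb1, the beta-galactosidase, had 327 in MatDup.dist7 MEFs and 421 in PatDup.dist7 MEFs (-0.35).

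Enzymes that trim the sugars of glycoproteins went both ways. Fuca1, an alpha-fucosidase, had 323 in MatDup.dist7 cells against 458 in PatDup.dist7 cells (-0.49). Man2b1, an alpha-mannosidase, had 1029 in MatDup.dist7 MEFs and 1442 in PatDup.dist7 MEFs (-0.48). Manba, the beta-mannosidase, lay on the other side, with 116 in MatDup.dist7 cells against 82.7 in PatDup.dist7 cells (0.42). The glycosidases of glycosaminoglycan breakdown were likewise split. Idua, the alpha-iduronidase, had 68.6 in MatDup.dist7 MEFs and 95.0 in PatDup.dist7 MEFs (-0.39). Gusb, the beta-glucuronidase, had 627 in MatDup.dist7 cells against 772 in PatDup.dist7 cells (-0.29). Naglu, which removes N-acetylglucosamine from heparan sulfate, had 807 in MatDup.dist7 MEFs and 732 in PatDup.dist7 MEFs (0.14).

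Sulfatases take sulfate groups off glycosaminoglycans and lipids, and 4 of 5 were lower in MatDup.dist7, with a median of -0.44. Galns, which acts on keratan and chondroitin sulfate, had 82.1 in MatDup.dist7 cells against 144 in PatDup.dist7 cells (-0.70). Sgsh, the heparan N-sulfatase, had 147 in MatDup.dist7 MEFs and 243 in PatDup.dist7 MEFs (-0.67). Both were past 1.5-fold. Arsa, which acts on the myelin lipid sulfatide, had 281 in MatDup.dist7 cells against 389 in PatDup.dist7 cells (-0.44). Ids, the X-linked iduronate sulfatase, had 336 in MatDup.dist7 MEFs and 392 in PatDup.dist7 MEFs (-0.22). Arsb, which acts on dermatan and chondroitin sulfate, was higher in MatDup.dist7 on both of its probe sets. These had 192 and 202 in MatDup.dist7 cells and 165 and 154 in PatDup.dist7 cells, with differences of 0.20 and 0.36. Sumf1, the enzyme that activates all sulfatases, was chosen from a list of other lysosomal genes after its values were seen, and had 366 in MatDup.dist7 cells against 523 in PatDup.dist7 cells (-0.50).

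Membrane proteins were the class with the narrowest range, and all 7 were lower in MatDup.dist7. Their differences ran from -0.62 to -0.32 with a median of -0.46. Mcoln1, a cation channel that releases calcium from the lysosome, had 181 in MatDup.dist7 MEFs and 288 in PatDup.dist7 MEFs (-0.62), the only one of the 7 past 1.5-fold. Cd63, a tetraspanin of late endosomes and exosomes, had 618 in MatDup.dist7 cells against 882 in PatDup.dist7 cells (-0.50). Laptm4a, a small membrane-spanning protein, had 240 in MatDup.dist7 MEFs and 345 in PatDup.dist7 MEFs, also -0.50. Npc1, which exports cholesterol across the lysosomal membrane, had 559 in MatDup.dist7 cells against 775 in PatDup.dist7 cells (-0.46). Scarb2, which carries the enzyme glucocerebrosidase to the lysosome, had 336 in MatDup.dist7 MEFs and 432 in PatDup.dist7 MEFs (-0.35). The major glycoproteins of the membrane were nearly level with it. Lamp1 had 4137 in MatDup.dist7 cells against 5249 in PatDup.dist7 cells (-0.34), and the X-linked Lamp2 had 435 in MatDup.dist7 MEFs and 548 in PatDup.dist7 MEFs (-0.32).

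The soluble proteins of lipid handling and the remaining hydrolases had the smallest lean of the 5 classes, with 4 of 6 lower in MatDup.dist7 and a median of -0.24, or -0.12 after centring by level. Psap, the precursor of the saposins that help enzymes reach lipids, had 3692 in MatDup.dist7 cells against 4951 in PatDup.dist7 cells (-0.42). Tpp1, a tripeptidyl peptidase, had 1210.3 in MatDup.dist7 MEFs and 1515 in PatDup.dist7 MEFs (-0.32). Npc2, which hands cholesterol to Npc1, had 1433 in MatDup.dist7 cells against 1762 in PatDup.dist7 cells (-0.29). Lipa, the acid lipase, had 471 in MatDup.dist7 MEFs and 537 in PatDup.dist7 MEFs (-0.18). The other 2 genes lay above 0 by about as much as Psap lay below it. Asah1, the acid ceramidase, had 2299 in MatDup.dist7 cells against 1742 in PatDup.dist7 cells (0.40). Ppt1, which removes palmitate from proteins, had 303 in MatDup.dist7 MEFs and 218 in PatDup.dist7 MEFs (0.45), the highest difference of the 40 genes.

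Heparan sulfate breakdown gave an example of a pathway whose enzymes did not share a direction. Idua, Ids, Sgsh and Gusb had differences of -0.39, -0.22, -0.67 and -0.29, and Naglu had 0.14. Hgsnat, the acetyltransferase of the same pathway and one of the other lysosomal genes, had 369 in MatDup.dist7 cells against 196 in PatDup.dist7 cells (0.86).

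Lysosomal genes beyond the 40 leaned less uniformly. Of 28 other hydrolases and activators, 19 were lower in MatDup.dist7, with a median of -0.39. At least 1.5-fold higher in MatDup.dist7 were 3 of these 28 genes, against 15.5% of all genes. On the PatDup.dist7 side were 7, against 12.5%. Among the 24 above the level median these counts were 3 and 3, against 9.75% and 9.34% of all genes above it. Creg1, a secreted glycoprotein, had 62.8 in MatDup.dist7 MEFs and 131 in PatDup.dist7 MEFs (-0.90), and Scpep1, a serine carboxypeptidase, had 1077 in MatDup.dist7 cells against 1694 in PatDup.dist7 cells (-0.65). Hyal2, a hyaluronidase, lay the other way, with 189 in MatDup.dist7 MEFs and 115 in PatDup.dist7 MEFs (0.65). Of 30 other membrane proteins and transporters, 20 were lower in MatDup.dist7, with a median of -0.36. Cd68, also a macrophage marker, had 944 in MatDup.dist7 MEFs and 1586 in PatDup.dist7 MEFs (-0.74). Ostm1, the partner of the chloride transporter Clcn7, had 127 in MatDup.dist7 cells against 230.3 in PatDup.dist7 cells (-0.78). Mfsd8, a transporter gene, had 90.4 in MatDup.dist7 MEFs and 49.1 in PatDup.dist7 MEFs (0.71), and Tmem175, a potassium channel gene, had 200 in MatDup.dist7 cells against 122 in PatDup.dist7 cells (0.64). Of these 30 membrane proteins and transporters, 4 were past 1.5-fold on the MatDup.dist7 side, a share near the 15.5% of all genes. On the PatDup.dist7 side were 4, near the 12.5% of all genes. Among the 25 above the level median these counts were 2 and 3, against 9.75% and 9.34% of all genes above it.

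The proton pump was lower in MatDup.dist7 across most of its subunits. Of 24 vacuolar ATPase genes, 19 had a difference below 0, with a median of -0.41, and of the 18 above the level median 16 did. Atp6v0b, a subunit of the membrane ring, had 686 in MatDup.dist7 MEFs and 1310 in PatDup.dist7 MEFs (-0.92). Atp6v1b2, a catalytic-sector subunit, had 1296 in MatDup.dist7 cells against 1971 in PatDup.dist7 cells (-0.60). Atp6v1d, part of the rotor, had 969 in MatDup.dist7 MEFs and 1433 in PatDup.dist7 MEFs (-0.56). The X-linked accessory gene Atp6ap2 had 265 in MatDup.dist7 cells against 382 in PatDup.dist7 cells (-0.50). At the 1.5-fold rule, 2 of the 24 were on the MatDup.dist7 side, against 15.5% of all genes. On the PatDup.dist7 side were 3, a share near the 12.5% of all genes. Among the 18 above the level median these counts were 0 and 2, against 9.75% and 9.34% of all genes above it.

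Most genes for tagging and sorting lysosomal enzymes were lower in MatDup.dist7. Of 19 genes, 16 were lower in MatDup.dist7, with a median of -0.37. On the PatDup.dist7 side, 3 of the 19 were past 2-fold, against 3.16% of all genes. Gnptg, a subunit of the phosphotransferase that begins the mannose 6-phosphate tag, had 64.8 in MatDup.dist7 MEFs and 194 in PatDup.dist7 MEFs (-1.38). Nagpa, which uncovers the tag, had 70.6 in MatDup.dist7 cells against 170 in PatDup.dist7 cells (-1.10). Sort1, a sorting receptor independent of the tag, had 51.3 in MatDup.dist7 MEFs and 125 in PatDup.dist7 MEFs (-1.07). All 3 were dim genes in MatDup.dist7, close to the level median. Igf2r, the large mannose 6-phosphate receptor, which also takes up the growth factor Igf2 and is itself imprinted, had 882 in MatDup.dist7 cells against 1390.3 in PatDup.dist7 cells (-0.65). Gga2, a sorting adaptor gene on chromosome 7, lay the other way, with 105 in MatDup.dist7 MEFs and 51.9 in PatDup.dist7 MEFs (0.83).

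Relatives and regulators of Tfeb lay on both sides of 0. Of 20 genes, 13 were lower in MatDup.dist7, with a median of -0.20. Tfe3, an X-linked relative that binds the same element, had 344 in MatDup.dist7 cells against 237 in PatDup.dist7 cells (0.51). Mitf, another relative, was also higher in MatDup.dist7, on probe sets with 195 and 41.7 in MatDup.dist7 cells and 178 and 22.4 in PatDup.dist7 cells. Tfec, a further relative with a level under the median of all probe sets, lay on the side of Tfeb, with 1.31 in MatDup.dist7 MEFs and 32.6 in PatDup.dist7 MEFs (-1.49). Rragb, another gene of the list under this median, lay the other way, with 42.3 in MatDup.dist7 MEFs and 5.06 in PatDup.dist7 MEFs (1.47). Tfec and Rragb were named after their values were seen. Mtor, the kinase that holds Tfeb in the cytoplasm, had 134 in MatDup.dist7 MEFs and 209 in PatDup.dist7 MEFs (-0.59). Lamtor3, part of the scaffold that recruits this kinase, had a mean difference of -0.70 over its probe sets. Ppp3cb, a catalytic subunit of calcineurin, the phosphatase that acts on Tfeb, had 478 in MatDup.dist7 cells against 695 in PatDup.dist7 cells (-0.53).

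Autophagy genes, whose products deliver cargo to the lysosome, had 22 of 29 differences below 0 and a median of -0.22. On the PatDup.dist7 side 1 of the 29 was past 1.5-fold, against 12.5% of all genes. Among the 27 above the level median it was 0. Sqstm1, the cargo receptor p62, had 4041 in MatDup.dist7 MEFs and 5986 in PatDup.dist7 MEFs (-0.56). Rab7, a GTPase of late endosomes, had 829 in MatDup.dist7 cells against 1220 in PatDup.dist7 cells (-0.55). Vps18, a tethering subunit, and Stx17, a fusion protein, differed by -0.57 and -0.55. Inhibitors of cathepsins gave a mixed list, with 6 of 9 below 0 and a median of -0.26. The main secreted inhibitor, Cst3, had 4693 in MatDup.dist7 MEFs and 3631 in PatDup.dist7 MEFs (0.37), and the intracellular inhibitor Cstb had 276 in MatDup.dist7 cells against 205 in PatDup.dist7 cells (0.40). Serpinb6a was nearly level at -0.04. These 3 inhibitor genes were the only ones above the level median, and their median difference of 0.37 was the value of Cst3. They are too few to set against the cathepsins.

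**Figure D3:**
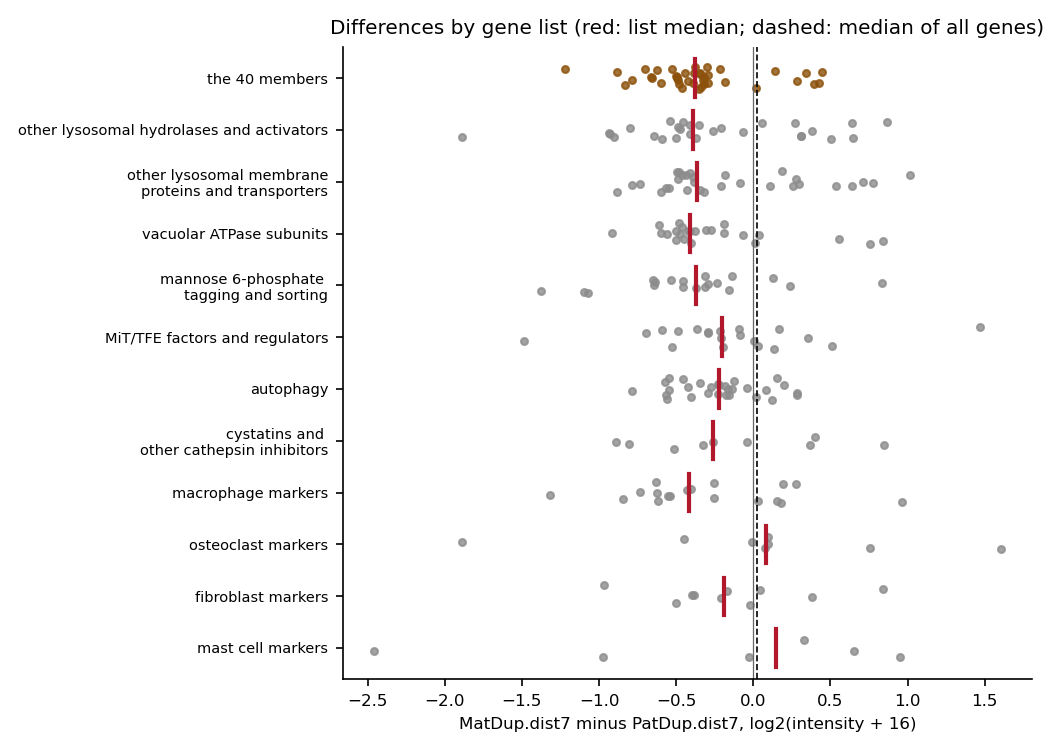
Difference of each gene (MatDup.dist7 minus PatDup.dist7, log2(intensity + 16), horizontal axis) in the 40 lysosomal genes and in lists of related genes and cell type markers. Points are genes, spread vertically for sight only, red bars are list medians, and the dashed line is the median of all genes at 0.02. List medians lie between -0.41 for the vacuolar ATPase and -0.20 for the Tfeb relatives and regulators, apart from marker lists.

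Other cells in the cultures were assessed, since macrophages are rich in lysosomes. Macrophage markers ran from 31.7 to 1711 in MatDup.dist7 MEFs and from 56.0 to 1586 in PatDup.dist7 MEFs. A mean level above the median of all probe sets was found for 15 of 18. Of the 18, 12 were lower in MatDup.dist7, with a median of -0.42, and their summed intensity was 10288 in MatDup.dist7 MEFs and 11699 in PatDup.dist7 MEFs. Leaving out Cd68, Ctss and Laptm5, which are also lysosomal genes, 10 of 15 were lower, with a median of -0.41. They did not move together. Aif1, a macrophage calcium-binding protein gene, had 71.8 in MatDup.dist7 cells against 141 in PatDup.dist7 cells (-0.84), and C1qa, a complement gene, had 467 in MatDup.dist7 MEFs and 728 in PatDup.dist7 MEFs (-0.62). Adgre1, which encodes the surface marker F4/80, had 548 in MatDup.dist7 cells against 273 in PatDup.dist7 cells (0.96), and Csf1r, the receptor on which macrophages depend, had 855 in MatDup.dist7 MEFs and 746 in PatDup.dist7 MEFs (0.19). The part of macrophages in the lysosomal differences was not tested, and in bulk RNA fewer cells of a type and less RNA per cell cannot be told apart.

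Osteoclast markers, relevant to Ctsk, had 3 of 8 differences below 0, a median of 0.09 and summed intensities of 708 in MatDup.dist7 cells against 734 in PatDup.dist7 cells. The markers above the level median differed by -0.45 for Ocstamp, 0.09 for Itgb3 and 0.08 for Mmp9. Acp5, the tartrate-resistant phosphatase of osteoclasts and macrophages, stood apart with 13.3 in MatDup.dist7 MEFs and 92.4 in PatDup.dist7 MEFs (-1.89). Oscar, an osteoclast receptor gene, was at 34.1 in MatDup.dist7 MEFs and under 1 in PatDup.dist7 MEFs. Acp5 and Oscar were singled out after their values were seen. Without Acp5 the order of the sums turned, to 695 in MatDup.dist7 MEFs and 641 in PatDup.dist7 MEFs.

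Fibroblast markers, which check the label, covered a wide range of signal, with Vim at 11913 in MatDup.dist7 cells against 11542 in PatDup.dist7 cells and Col1a1 at 7565 and 9870.0 in the same order, while Fap was at 4.04 and 23.1. Of the 10, 7 were lower in MatDup.dist7, with a median of -0.19 and summed intensities of 29826 and 33838. Col3a1 and Thy1 were lower in MatDup.dist7, by differences of -0.50 and -0.40. S100a4 lay the other way, with 246 in MatDup.dist7 MEFs and 130.2 in PatDup.dist7 MEFs (0.84). Mast cell markers summed to 266 in MatDup.dist7 MEFs and 371 in PatDup.dist7 MEFs, with 3 of 6 below 0. Mcpt4, a mast cell protease gene, had 20.2 in MatDup.dist7 MEFs and 183 in PatDup.dist7 MEFs (-2.46), and without it the order of the sums turned, to 246 in MatDup.dist7 MEFs and 189 in PatDup.dist7 MEFs. Kit, the receptor on which mast cells depend, had 121 in MatDup.dist7 cells against 71.6 in PatDup.dist7 cells (0.65), and the protease gene Tpsb2 differed by -0.03. The part of these cells in the lysosomal differences was not tested.

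Position on the duplicated chromosome was examined last. Chromosome 7 carries Ctsc, Tpp1 and Ctsd, at places 936, 1203 and 1692 in order among 1738 measured genes, and the strongly different imprinted genes Igf2 and Cdkn1c stand at 1699 and 1711. The labels used here state no breakpoint of the duplication, and which of the 3 lie within it was not established. Ctsd, the closest of them to Igf2, differed by -0.38, as did Ctsb on chromosome 14. The 3 genes ran from -0.53 to -0.32, while the median of 1734 genes assigned to the chromosome was 0.08. Without chromosome 7 the lysosomal median was -0.38, as with it. The 3 genes lay around that median, so leaving them out could hardly move it. It also does not remove effects of the duplication on genes elsewhere. The part of position in the differences was not tested.

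The cultures also differed in sex-linked transcripts, and sex and genotype cannot be told apart. Xist, a marker of X inactivation, was at 0.00166 in MatDup.dist7 cells against 91.2 in PatDup.dist7 cells, and the Y-linked Eif2s3y was at 112 in MatDup.dist7 MEFs and 6.44 in PatDup.dist7 MEFs. Of the 40 genes, Gla, Lamp2 and Ids lie on the X chromosome, and all 3 were lower in MatDup.dist7. The other 37 had a median of -0.38, with 30 below 0. Leaving out X-linked genes does not remove an effect of sex on autosomal genes.

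**Figure D4:**
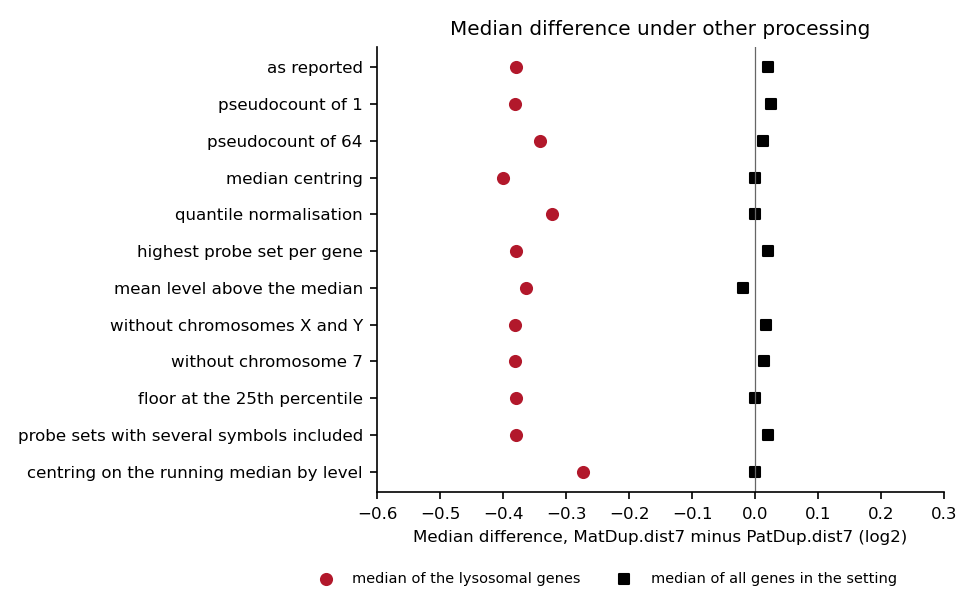
Median difference (MatDup.dist7 minus PatDup.dist7, log2, horizontal axis) of the lysosomal genes (red circles) and of all genes (black squares) as reported and under each other way of processing (rows). The lysosomal median runs from -0.40 with median centring to -0.27 with centring on the running median by level, and the median of all genes from -0.02 to 0.03.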

How the data were processed

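RNA of 1 MatDup.dist7 and 1 PatDup.dist7 MEF culture was labelled with biotin and hybridised to whole-transcript arrays, per the labels. The authors deposited 1 linear intensity per probe set and array. Affymetrix Expression Console is named per the submitters' processing notes, while background correction, summarisation and normalisation were not stated there. The median intensity was 68.6 in MatDup.dist7 cells and 64.2 in PatDup.dist7 cells. Having 1 array per genotype limits the precision.

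Of 35557 probe sets, the 21789 with 1 gene symbol were used. Gene identifiers of 21698 of them matched the RefSeq table of GRCm38.p6, which gave symbols, chromosomes and gene order. From the intensities, log2(intensity + 16) was computed and averaged over the probe sets of a gene (pandas 2.3.3, numpy 2.4.6). The calculation was checked on simulated arrays. Fold rules of 2 and 1.5 replaced a test, as 1 array per genotype allows none.

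The members, the lists and the pseudocount were chosen with earlier results of these data known. The rule named every member and, from each other list, up to 4 genes above the level median with the largest absolute difference, plus Igf2r, Tfe3 and Mitf. Of the genes the rule gave by symbol, those without a probe set of their own are not analysed here. Exceptions are marked, and Csf1r, Vim and Fap were likewise named after their values were seen.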

Additional observations from a re-analysis of the deposited data

How the results depend on the processing

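Over 11 other ways of processing, 10 planned and centring on the running median by level added after the data were seen, the 33 genes below 0 stayed below 0 wherever they were included. Of all 40 genes, 39 kept their sign, the exception being Ctsf. With a pseudocount of 1, 2 genes passed 2-fold on the PatDup.dist7 side. With a pseudocount of 64, 0 passed 2-fold and 3 passed 1.5-fold on that side, the latter against 3.72% of all genes. The share of all genes past 2-fold was not computed under these settings. Without chromosomes X and Y the sulfatase median was -0.55, since Ids leaves a list of 5. Centring by level moved the median of all members to -0.27, that of the cathepsins to -0.22 and that of the lipid-handling and other soluble proteins to -0.12, as bright genes lay below 0 as a whole. Under the remaining settings these counts stayed within 1.5 times of the reported ones. Leaving out the most different gene of a marker list, also added after the data were seen, turned the order of the summed intensities for the osteoclast and mast cell lists and not for the macrophage and fibroblast lists. No paired analysis was possible because each genotype has 1 array. Without replicate arrays, no difference can be set against variation between cultures.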
